A study of Mus musculus with 12 samples.

Results

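The genes of cholesterol and fatty acid synthesis were followed through 12 microarrays of cultured mouse cardiac fibroblasts. The members were 30 genes named by symbol in the platform annotation, of which 26 had a probe set among the 19505 genes tested, each with 1 probe set. Tm7sf2, Srebf1, Acat2 and Scd2 were not analysed here. The 26 comprised 16 enzymes of the cholesterol pathway, 4 genes of its sterol sensor, the sterol carrier gene Stard4, 3 fatty acid enzymes and the 2 efflux transporter genes Abca1 and Abcg1.

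All cultures were wild-type C57BL/6J cells from hearts of newborn mice, 1 to 7 days after birth, kept for 10 to 14 days until they had become myofibroblasts. For 8 h the cells were given, with 3 arrays per group, carrier alone, soluble CD74 at 40 nM (sCD74, the shed ectodomain of a surface protein that binds MIF), the cytokine MIF at 8 nM, or sCD74 and MIF together at those doses. The arrays carry replicate numbers 1 to 3, and the 4 arrays of a number share a code in their titles. The comparisons ask what each protein and their combination do to these transcripts, and how far the replicate numbers differ. Whether replicates stem from different cell isolations is not stated in the labels, so each p-value reflects spread among these arrays, which may be technical.

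Cholesterol and fatty acids are built from acetyl-CoA by enzymes whose genes are switched together by SREBP transcription factors. When membranes hold little sterol, the escort protein Scap carries SREBP to the Golgi, where it is cut and released to the nucleus. Insig proteins hold Scap back when sterol is plentiful. The LXR receptors respond to oxidised sterols in the opposite way and switch on Abca1 and Abcg1, which export cholesterol, a task well known from macrophages.

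Levels are log2 values as deposited, and each difference is a difference of such levels. Levels of a gene are given in the order of replicate numbers 1, 2 and 3 within a group. The fibroblast identity of the cultures was borne out by its markers: the mean log2 level of 11 fibroblast and myofibroblast genes lay between 16.02 and 16.33 on all arrays. The cultures also held transcripts of other cells, and these differed by replicate number. The mean over 15 macrophage markers was 12.47 to 12.86 on the arrays of number 1, against 13.69 to 13.95 for number 2 and 13.21 to 13.62 for number 3. Endothelial markers (10 genes) stood at 10.97 to 11.07 in number 1 and 9.57 to 10.28 in the others, and cardiomyocyte markers (10 genes) at 8.07 to 8.12 in number 3 and 9.31 to 9.56 in the others. Signal over background, taken as the gap between positive and negative control medians, ranged from 3.67 for sCD74 replicate 3 and 3.77 for carrier replicate 1 to 4.25 for carrier replicate 2. All 26 members lay above the negative control median of the array, except Pmvk on carrier replicate 1 and sCD74 replicate 3 and Insig2 on carrier replicate 1.

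Promoter windows of RefSeq (GRCm38.p6, 250 bases before to 50 after a start site) were found for 23 of the 30 genes, in 31 windows. The motifs searched for were the CCAAT, GC and E-boxes, the sterol regulatory element and an LXR site, and the set of all windows held 32851. The letters CCAAT, the core bound by NF-Y, a factor that works beside SREBP, were present on either strand in at least 1 window of 14 of 14 cholesterol enzyme genes, against 41.1% of all 27025 genes with a window. Over all 31 windows the share was 64.5%, against 37.4% of all windows. GGGCGG, the GC box bound by Sp1, was in 77.4%, against 35.7%, and in 13 of the 14 enzyme genes, Pmvk being the exception. The E-box CACGTG was in 22.6%, against 7.15%. Genes with several windows count once for each. The windows of Abca1, Acaca, Acat2 and Scap held no CCAAT. A match to TCACNCCAC, letters of the sterol regulatory element, occurred only in Hmgcs1 among the members, and in 1.24% of all windows. Only this form of the element was searched for, so its absence does not show that other members lack the element. The direct repeat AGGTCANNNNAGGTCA, a strict form of LXR site, occurred in 0 member windows and in 5 of all 32851 windows (0.0152%). So rare a form could hardly be met in 31 windows, and looser forms were not searched for. The count therefore does not show that members such as Abca1 lack an LXR site. These matches describe letters, not binding, and were counted on both strands. In Fasn, CCAAT matches on opposite strands overlap. The windows shown belong to Hmgcs1, the HMG-CoA synthase gene, which holds the only TCACNCCAC match, to 2 enzymes that were higher in replicate number 1 (Cyp51, Hsd17b7), and to 2 genes that were lower there (Ebp, Abca1). Capitals mark CCAAT or its complement ATTGG and, in Hmgcs1, the TCACNCCAC match.
Hmgcs1, chr13:119690101-119690400, plus strand: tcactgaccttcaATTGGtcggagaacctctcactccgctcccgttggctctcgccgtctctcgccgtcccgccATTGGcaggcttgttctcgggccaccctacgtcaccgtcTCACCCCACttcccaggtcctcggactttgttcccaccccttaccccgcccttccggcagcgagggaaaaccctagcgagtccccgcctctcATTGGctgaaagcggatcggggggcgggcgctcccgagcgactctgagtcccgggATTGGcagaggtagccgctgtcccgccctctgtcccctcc
Cyp51, chr5:4104648-4104947, minus strand: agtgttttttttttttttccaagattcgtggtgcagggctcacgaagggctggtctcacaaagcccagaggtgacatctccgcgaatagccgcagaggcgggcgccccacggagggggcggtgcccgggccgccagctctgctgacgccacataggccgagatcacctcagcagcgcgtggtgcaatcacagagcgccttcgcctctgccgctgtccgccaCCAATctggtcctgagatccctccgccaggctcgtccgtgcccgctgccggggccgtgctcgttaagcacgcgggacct
Hsd17b7, chr1:169969156-169969455, minus strand: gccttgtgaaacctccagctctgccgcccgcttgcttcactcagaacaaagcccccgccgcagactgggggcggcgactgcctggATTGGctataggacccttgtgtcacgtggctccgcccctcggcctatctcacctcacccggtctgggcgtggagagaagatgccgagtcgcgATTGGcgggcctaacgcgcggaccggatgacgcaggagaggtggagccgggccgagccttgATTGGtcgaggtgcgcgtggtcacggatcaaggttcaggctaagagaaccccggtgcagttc
Ebp, chrX:8193463-8193762, minus strand: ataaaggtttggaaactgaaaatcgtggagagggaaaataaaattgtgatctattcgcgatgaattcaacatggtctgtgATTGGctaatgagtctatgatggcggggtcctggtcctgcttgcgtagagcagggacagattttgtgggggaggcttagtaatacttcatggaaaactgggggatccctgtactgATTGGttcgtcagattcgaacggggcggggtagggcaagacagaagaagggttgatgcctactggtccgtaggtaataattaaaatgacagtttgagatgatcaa
Abca1, chr4:53159846-53160145, minus strand: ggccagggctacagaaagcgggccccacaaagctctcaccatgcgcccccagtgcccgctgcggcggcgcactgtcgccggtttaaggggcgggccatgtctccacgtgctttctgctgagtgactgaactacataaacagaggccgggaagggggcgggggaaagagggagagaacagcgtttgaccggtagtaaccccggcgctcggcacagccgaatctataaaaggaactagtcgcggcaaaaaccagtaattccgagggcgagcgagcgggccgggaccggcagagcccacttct

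Most of the enzymes shared their high and low arrays. Measured as the median deviation of the 16 cholesterol enzymes from each gene's own mean over the 12 arrays, the co-treated array of number 1 stood highest at +0.49, followed by sCD74 replicate 2 (+0.17) and MIF replicate 1 (+0.16). The lowest were sCD74 replicate 3 (-0.28), MIF replicate 2 (-0.24), carrier replicate 3 (-0.18) and carrier replicate 1 (-0.16). Of the 26 members, 14 had their highest value on the co-treated array of number 1, where 8.8% of all genes had theirs. MIF replicate 2 held the lowest value of 8 members, and 6.58% of all genes. Control signal moved with this order in part: the 3 arrays with the smallest gap between positive and negative controls (sCD74 replicate 3, carrier replicate 1 and carrier replicate 3, at 3.67, 3.77 and 3.98) were among the 4 lowest for the enzymes, while MIF replicate 2 had a gap of 4.06. The part of control signal in the order was not tested.

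**Figure D1:**
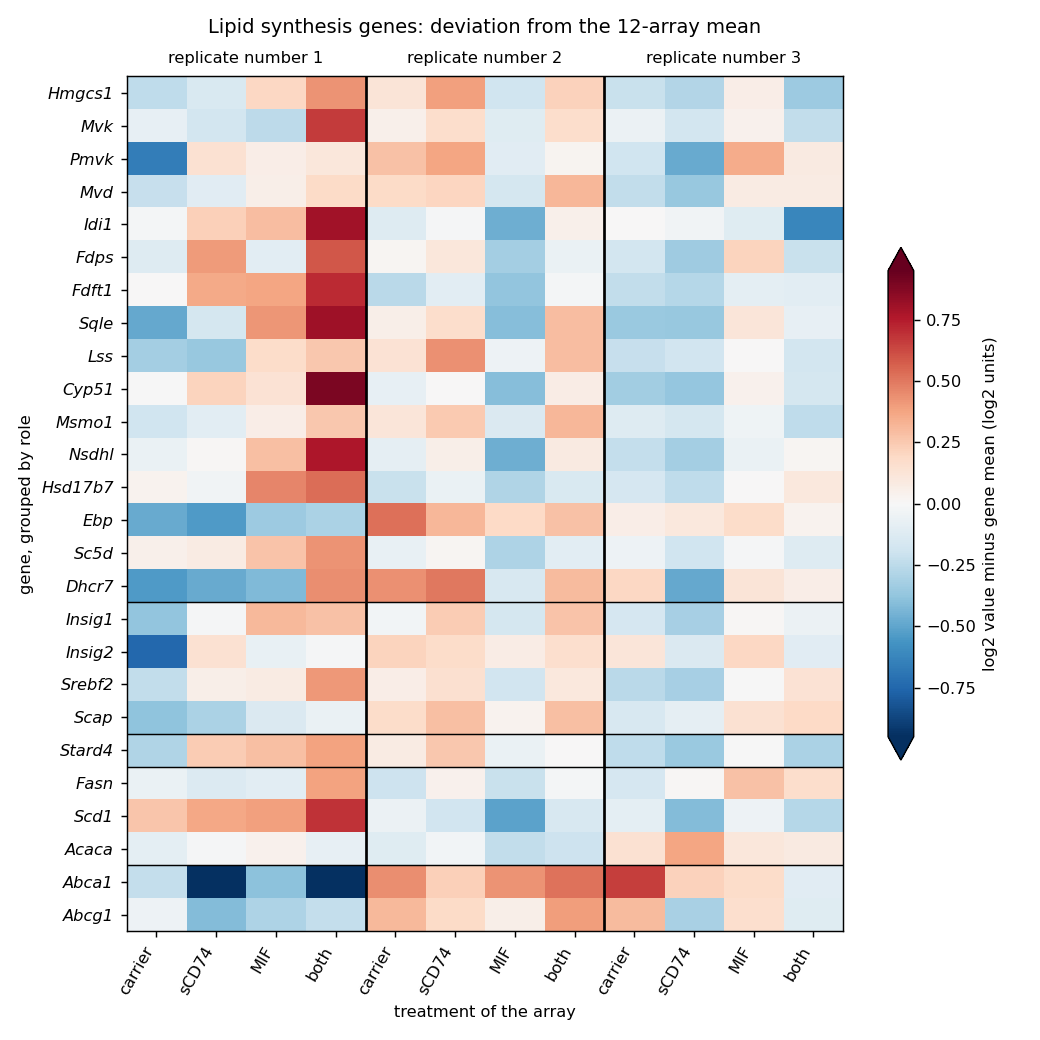
Deviation of each of the 26 genes (rows, separated by role) from its mean over 12 arrays, in log2 units, with arrays ordered by replicate number and treatment ("both" is sCD74 with MIF). The co-treated column of number 1 is red for nearly all enzymes, with an enzyme median of +0.49, and the MIF column of number 2 is blue for most, with a median of -0.24.

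With co-treatment, 22 of 26 members lay above carrier and none passed the test. The median log2 difference over the members was +0.23, against 0.0014 over all genes, of which 50.3% lay above carrier. Limma's test with Benjamini-Hochberg adjustment called 0 of 26 members and 0 of 19505 genes (0%), and 0 with the replicate number as a block. At an unadjusted p under 0.05 there were 2 members, against 4% of all genes, and with the block 8, against 8.23%. Of these 8, Fdft1, Sqle, Srebf2, Nsdhl, Fasn, Cyp51 and Insig1 were higher. Abca1, with the smallest p of the 8, was lower, at -0.48. Most of the shift lay in replicate number 1. The members' median difference between same-numbered arrays was +0.65 in number 1, +0.09 in number 2 and -0.03 in number 3. Without the 4 arrays of number 1 the median was -0.0019. Without the co-treated array of number 1 it was +0.10, and without carrier replicate 1, where control signal was low, +0.15.

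In all 3 same-numbered pairs 11 of 26 members lay above carrier (Sqle, Cyp51, Fdft1, Lss, Mvd, Nsdhl, Hsd17b7, Srebf2, Insig1, Scap and Fasn), as did 14.2% of all genes.

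Among the enzymes of the pathway, all 16 lay above carrier in number 1 (51.2% of all genes did), 11 in number 2 (48%) and 8 in number 3 (51.4%). The medians were +0.71, +0.13 and +0.01. Sqle, squalene epoxidase, which carries out the first oxygen-dependent step and is a control point of the pathway, had the smallest p of the group. Its levels were 10.00, 10.54 and 10.14 with carrier, 10.32, 10.65 and 10.12 with sCD74, 10.91, 10.09 and 10.60 with MIF, and 11.29, 10.78 and 10.41 with both. The highest array was the co-treated one of number 1 and the lowest the carrier array of the same number, and the groups overlapped. The difference from carrier was +0.60 ± 0.25 (SE, limma adjusted p = 0.999), with +1.29, +0.24 and +0.27 in numbers 1, 2 and 3.

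In other enzymes, too, number 1 had the widest difference. Cyp51, which removes the methyl group of lanosterol, differed from carrier by +0.40 ± 0.25 (SE), with +0.89, +0.15 and +0.16 in the 3 numbers. Nsdhl, which takes part in removing the remaining methyl groups, differed by +0.41 ± 0.22 (+0.83, +0.17 and +0.24), and its 3 co-treated arrays all lay above the 3 carrier arrays. Idi1, the isomerase of isoprenoid units, differed in sign between numbers, at +0.82, +0.17 and -0.62, with a mean of +0.12 ± 0.28. Dhcr7, the reductase that completes cholesterol, did too, at +0.98, -0.13 and -0.13. The other early enzymes, namely Hmgcs1, the mevalonate kinases Mvk and Pmvk, the decarboxylase Mvd and Fdps, which makes farnesyl diphosphate, lay between +0.20 (Fdps) and +0.28 (Mvd) above carrier. Of the later ones, the squalene synthase gene Fdft1 differed by +0.36, Hsd17b7 by +0.27, the lanosterol synthase gene Lss by +0.26, the methyl sterol oxidase gene Msmo1 by +0.17 and the desaturase gene Sc5d by +0.09. For Ebp, the sterol isomerase, the mean difference was -0.03 ± 0.28.

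Of the sterol-sensing genes, Srebf2, the SREBP that mainly drives cholesterol genes, had levels of 14.01, 14.30 and 13.99 with carrier, 14.30, 14.39 and 13.92 with sCD74, 14.32, 14.06 and 14.24 with MIF, and 14.65, 14.34 and 14.38 with both. The 3 co-treated arrays lay above the 3 carrier arrays, by 0.04 at the nearest pair of same-numbered arrays. The difference was +0.36 ± 0.16 (SE, limma adjusted p = 0.999). Insig1, itself an SREBP target that retains Scap in the endoplasmic reticulum, differed by +0.35 ± 0.18, with +0.66, +0.30 and +0.10. Scap lay higher by 0.26 ± 0.18, and Insig2 by 0.15 ± 0.21.

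Among fatty acid genes, Fasn, fatty acid synthase, stood at 11.13, 11.00 and 11.03 with carrier, 11.06, 11.23 and 11.20 with sCD74, 11.09, 10.98 and 11.47 with MIF, and 11.57, 11.18 and 11.36 with both. Its co-treated arrays also lay above all carrier arrays, the highest being number 1. The difference was +0.32 ± 0.15 (SE, limma adjusted p = 0.999). Together with Nsdhl and Srebf2 it was 1 of 3 members of 26 whose co-treated and carrier arrays did not overlap, against 4.52% of all genes above carrier in this way, and 0 members lay wholly below (3.96% of all genes). Scd1, stearoyl-CoA desaturase, differed by +0.05 ± 0.28, and Acaca, acetyl-CoA carboxylase, by -0.04 ± 0.15. Stard4, a cytosolic sterol carrier, had levels of 10.68, 11.04 and 10.72 with carrier, 11.20, 11.21 and 10.61 with sCD74, 11.24, 10.89 and 10.95 with MIF, and 11.34, 10.96 and 10.66 with both. Its groups overlapped, with a difference of +0.18 ± 0.21.

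**Figure D2:**
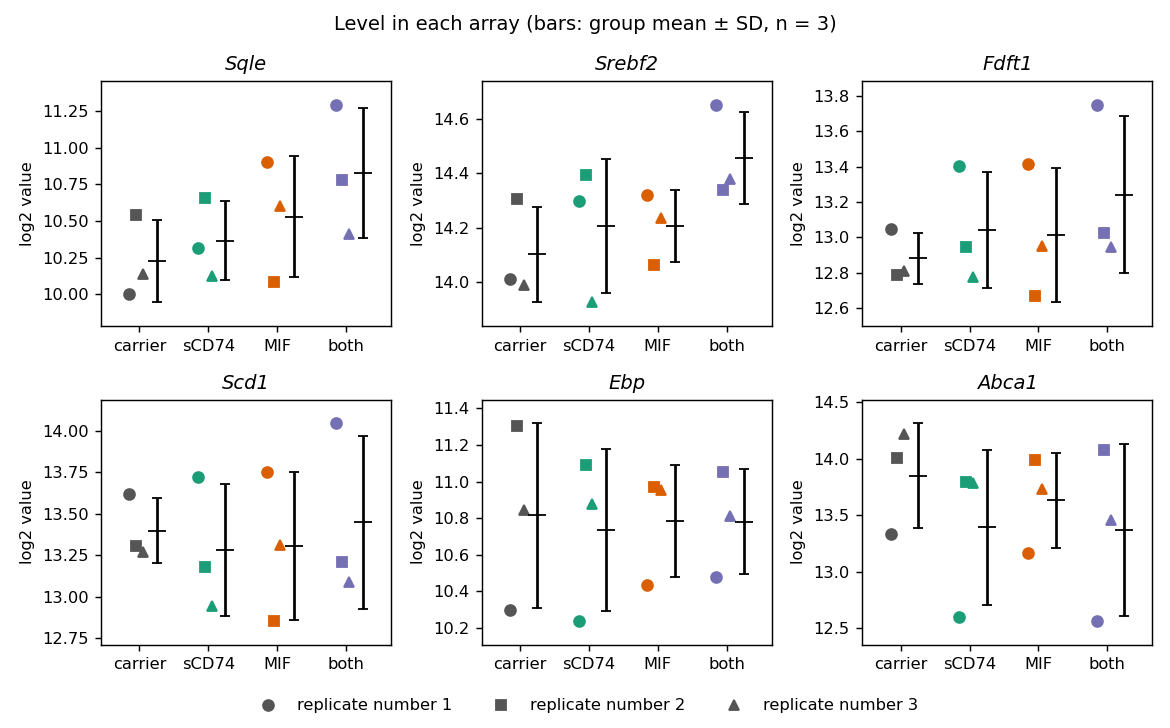
Log2 level of 6 genes on each array, by treatment ("both" is sCD74 with MIF), with marker shape for the replicate number and bars for the group mean ± SD (n = 3). Sqle is highest on the co-treated array of number 1 (11.29), and for Ebp and Abca1 the circles of number 1 are the lowest in every group.

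With MIF alone, differences from carrier ran in opposite directions in different replicate numbers. Each number holds 1 MIF array and 1 carrier array, so a count of enzymes describes that pair of arrays. Of the 16 enzymes, 15 lay above carrier in number 1, 0 in number 2 and 14 in number 3, while all genes were near an even split (53.2%, 48.4% and 51%). The medians were +0.29, -0.33 and +0.16. Over the 26 members the counts were 22, 0 and 21. The gap between positive and negative controls was 4.04, 4.06 and 4.17 on the MIF arrays of numbers 1, 2 and 3. On their carrier partners it was 3.77, 4.25 and 3.98, and its part in these counts was not tested. In the fit 18 of 26 lay above carrier (52.7% of all genes), with a median of +0.07. Limma with Benjamini-Hochberg adjustment called 0 of 26 members and 0 of 19505 genes (0%). At an unadjusted p under 0.05 there were 0 members, against 3.35% of all genes, and with the replicate block 0, against 6.43%. Without MIF replicate 2 the median was +0.17, and without the 4 arrays of number 1 it was -0.02. Sqle showed the pattern at its widest, at +0.91, -0.45 and +0.46, and Srebf2 stood at +0.31, -0.24 and +0.25. Insig1 stood at +0.68, -0.14 and +0.17. In no enzyme did all 3 same-numbered differences share a sign, as they did for 13.7% of genes above carrier and 12.7% below. A test of MIF by replicate number, added after these counts were seen, set the 2 arrays with MIF of each number (MIF alone and both) against the 2 without it. Limma's F test with Benjamini-Hochberg adjustment, on 4 residual degrees of freedom, called 0 of 26 members and 0% of genes. Unadjusted, 6 members had a p under 0.05 (Sqle, Nsdhl, Lss, Hsd17b7, Pmvk and Srebf2), against 6.89% of all genes. Sqle had the smallest p, with differences of +0.94, -0.16 and +0.37 in numbers 1, 2 and 3 (limma adjusted p = 0.710). With so few degrees of freedom, the missing calls do not show that the numbers responded alike. Nor do the counts, each from 1 pair of arrays, show that the numbers responded differently.

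sCD74 alone gave yet another pattern, again with 1 pair of arrays in each number. The enzymes above carrier were 12 of 16 in number 1, 15 in number 2 and 2 in number 3, against 51.2%, 49.1% and 48.4% of all genes, with medians of +0.10, +0.11 and -0.07. Over the 26 members, 19 lay above carrier in the fit (50% of all genes). Of these, Mvd and Hsd17b7, at 0.0021 and 0.0018, turned below carrier after further quantile normalization. The median of +0.09 was -0.027 without sCD74 replicate 2. Limma with Benjamini-Hochberg adjustment called 0 of 26 members and 0 of 19505 genes (0%). At an unadjusted p under 0.05 there were 0 members, against 1.79% of all genes, and with the replicate block 2 (Abca1 and Abcg1), against 4.19%. Among the 3 sCD74 arrays, replicate 3 had the fewest enzymes above its carrier partner and the smallest control gap (3.67, partner 3.98). The gap was 4.08 on sCD74 replicates 1 and 2, with partners at 3.77 and 4.25. MIF replicate 2, with 0 enzymes above carrier, had a gap of 4.06, and its partner carrier replicate 2 had the largest, 4.25. The part of control signal in these counts was not tested. The same F test for sCD74 by replicate number called 0 of 26 members and 0% of genes, with 3 members (Fdps, Abcg1 and Insig2) and 6.26% of genes at an unadjusted p under 0.05.

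**Figure D3:**
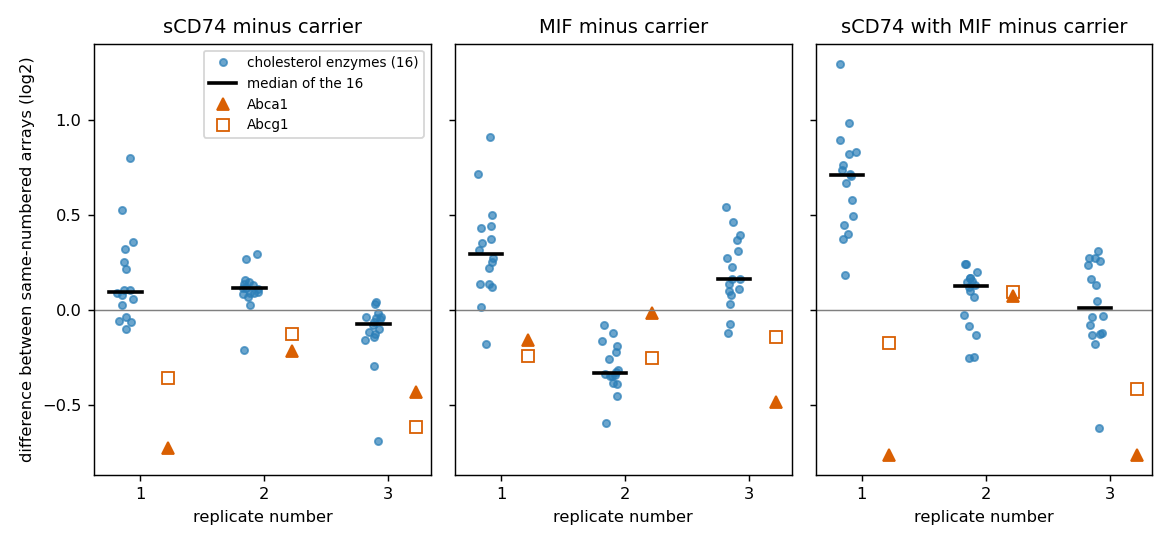
Difference from the carrier array of the same replicate number (vertical axis, log2) for the 16 cholesterol enzymes (blue points, black bar at their median) and for Abca1 and Abcg1 (orange), for each treatment and number. With MIF the enzyme median is +0.29 in number 1, -0.33 in number 2 and +0.16 in number 3, and with co-treatment it is +0.71, +0.13 and +0.01.

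The remaining contrasts gave no calls either. Co-treatment lay above sCD74 alone in 22 of 26 members (51.7% of all genes), with a median of +0.17, 0 members and 0% of genes called. At an unadjusted p under 0.05 there were 0 members and 2.67% of genes, and with the block 1 member and 5.4%. Co-treatment lay above MIF alone in 20 of 26 (49% of all genes), with a median of +0.13 and again 0 members and 0% called. Unadjusted, these were 0 members against 2.38% of genes, and with the block 0 against 4.43%. All 16 enzymes were higher with co-treatment than with MIF in numbers 1 and 2, and 3 of 16 in number 3 (48.7%, 50.4% and 50% of all genes). These comparisons share arrays with those against carrier, among them MIF replicate 2. The departure of co-treatment from the sum of both single responses had a median of +0.08, with 19 of 26 members above 0 (49.1% of all genes) and 0 called (0% of genes). The median turned to -0.067 without co-treated replicate 1 and to -0.04 without MIF replicate 2, and was +0.20 without sCD74 replicate 2. Unadjusted, 0 members stood against 1.86% of genes, and with the block 0 against 3.86%. Dhcr7 had the smallest p among the members there, at +0.61 ± 0.41 (SE, limma adjusted p = 1).

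The efflux transporters lay below carrier on average in all 3 treatments. Abca1, which loads cholesterol onto apolipoproteins, had levels of 13.33, 14.00 and 14.22 with carrier, 12.60, 13.79 and 13.78 with sCD74, 13.17, 13.99 and 13.73 with MIF, and 12.57, 14.08 and 13.46 with both. The arrays of number 1 were the lowest in every group, and within each number both the sCD74 and the MIF array lay below carrier. Abcg1, which passes cholesterol to mature lipoprotein particles, had levels of 8.44, 8.79 and 8.79 with carrier, 8.08, 8.67 and 8.18 with sCD74, 8.20, 8.54 and 8.65 with MIF, and 8.26, 8.88 and 8.37 with both. For sCD74 the differences in numbers 1, 2 and 3 were -0.73, -0.21 and -0.43 for Abca1 and -0.36, -0.12 and -0.61 for Abcg1. Both were thus lower in all 3 pairs, as were 13% of all genes. The fit without the replicate block gave -0.46 ± 0.40 and -0.37 ± 0.21 (SE, limma adjusted p = 1.00 for both). With the replicate block the SEs were 0.17 and 0.14 (limma unadjusted p = 0.018 and 0.019), and the adjusted p was again 1.00. With co-treatment Abca1 stood at -0.76, +0.07 and -0.76 in the 3 numbers and Abcg1 at -0.17, +0.09 and -0.42. Macrophage markers lay lower alongside. Their mean level was 12.86 to 13.95 on the carrier arrays, 12.47 to 13.94 with sCD74, 12.72 to 13.69 with MIF and 12.68 to 13.94 with both, and of the 15 genes only Cx3cr1 and Cd14 dipped to the range of the negative control medians (7.37 to 7.90). Of the 15, 13 lay below carrier with sCD74, with a median of -0.29. In numbers 1, 2 and 3 the median of the 15 was -0.53, 0.01 and -0.45 with sCD74. With MIF it was -0.21, -0.25 and -0.05, against -0.16, -0.01 and -0.48 for Abca1 and -0.24, -0.25 and -0.14 for Abcg1. With co-treatment the macrophage median was -0.23, -0.07 and -0.17, against -0.76, +0.07 and -0.76 for Abca1 and -0.17, +0.09 and -0.42 for Abcg1. In the fit, 13 of 15 macrophage markers lay below carrier with MIF (median -0.18), and with co-treatment 12 of 15 (-0.17). In bulk RNA, fewer macrophages and less transcript per macrophage cannot be told apart, and the part of macrophage RNA in the transporter values was not tested.

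All calls among these genes lay between replicate numbers. Between number 1 (4 arrays) and the mean of numbers 2 and 3 (8 arrays), with treatment in the model, limma called 8 of 26 members at an adjusted p under 0.05, against 16.4% of all genes. Of the 8, 4 rose in number 1 (7.03% of all genes did) and 4 fell (9.39%). At an unadjusted p under 0.05 there were 11 members, against 29.7% of all genes, and 16 of 26 lay higher in number 1, against 55.1%. The 4 arrays of a number may come from 1 cell isolation, so these p-values cover the spread between arrays and not that between isolations.

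Fdft1, squalene synthase, the first enzyme committed to sterols, had levels of 13.05, 12.79 and 12.81 with carrier, 13.41, 12.94 and 12.77 with sCD74, 13.42, 12.67 and 12.95 with MIF, and 13.75, 13.03 and 12.94 with both. All 4 arrays of number 1 lay above the 8 others. The difference was +0.54 ± 0.10 (SE, limma adjusted p = 0.00283). Scd1, which makes monounsaturated fatty acids, had levels of 13.62, 13.30 and 13.27 with carrier, 13.72, 13.18 and 12.94 with sCD74, 13.75, 12.85 and 13.31 with MIF, and 14.05, 13.21 and 13.09 with both. Number 1 again lay above all other arrays, by +0.64 ± 0.11 (SE, limma adjusted p = 0.00217). Hsd17b7, a sterol ketone reductase of the pathway, had levels of 12.23, 11.99 and 12.04 with carrier, 12.17, 12.13 and 11.96 with sCD74, 12.66, 11.91 and 12.20 with MIF, and 12.72, 12.05 and 12.30 with both. The MIF and co-treated arrays of number 1 were the highest, and its carrier and sCD74 arrays lay among the others. It was higher by +0.37 ± 0.11 (SE, limma adjusted p = 0.0304), and Cyp51 by +0.47 ± 0.14 (0.0351).

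Ebp was the cholesterol enzyme called as lower in number 1, with levels of 10.30, 11.30 and 10.84 with carrier, 10.24, 11.09 and 10.88 with sCD74, 10.43, 10.97 and 10.95 with MIF, and 10.48, 11.05 and 10.81 with both. Every array of number 1 lay below the 8 others, by -0.63 ± 0.09 (SE, limma adjusted p = 6.1e-04). Scap had levels of 10.78, 11.34 and 11.01 with carrier, 10.86, 11.45 and 11.08 with sCD74, 11.03, 11.20 and 11.31 with MIF, and 11.10, 11.45 and 11.35 with both. Numbers overlapped, and number 1 was lower by -0.33 ± 0.09 (SE, limma adjusted p = 0.0263). Abca1 showed the widest difference of all members, at -0.96 ± 0.13 (SE, limma adjusted p = 2.5e-04), with number 1 wholly below, and Abcg1 fell by 0.37 ± 0.10 (limma adjusted p = 0.0278). All 15 macrophage markers were called as lower in number 1 as well, with a median of -0.95, and 6 of 10 endothelial markers as higher and 1 as lower, with a median of +0.77. Of 10 cardiomyocyte markers, 4 were called as higher (median +0.35). Their mean level was 9.31 to 9.48 in number 1, 9.45 to 9.56 in number 2 and 8.07 to 8.12 in number 3. Of 6 adipocyte markers, 1 was called as higher and 1 as lower (median +0.13), and only 2 of the 6 exceeded the negative control median on any array. The part of these cells in the 8 calls was not tested. Members whose numbers did not overlap were Fdft1, Scd1 and Sc5d above (4.1% of all genes) and Ebp and Abca1 below (5.71%).

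The calls differed in firmness. Fdft1, Scd1, Ebp and Abca1 were called in all 22 settings tried. Hsd17b7 was called in 14, Scap in 13, and Cyp51 and Abcg1 in 12 each. Leaving out the co-treated array of number 1, all 3 co-treated arrays or all 3 carrier arrays left those 4 genes as the members called. Without the co-treated array of number 1 or all co-treated arrays, Cyp51 then stood at +0.31 (limma adjusted p = 0.170 and 0.186). Leaving out carrier replicate 3, sCD74 replicate 1, MIF replicate 1 or co-treated replicate 2 left 5 members called. Shares of all genes called in these settings are not given here. Idi1, Nsdhl and Sc5d, at adjusted p = 0.0647, 0.0656 and 0.0532, were called in 5, 4 and 5 of the settings. Over the 26 members the median difference was +0.07, with 16 higher and 10 lower.

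**Figure D4:**
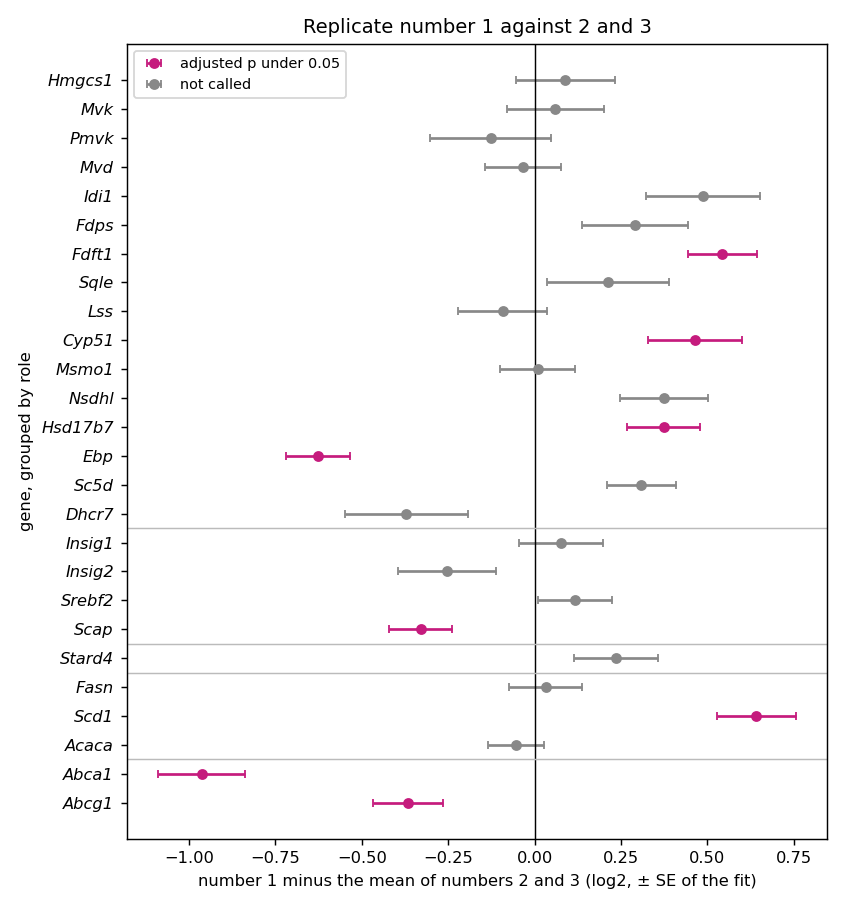
Log2 difference between replicate number 1 and the mean of numbers 2 and 3 for each gene, with the SE of the limma fit, grouped by role. Coloured points mark the 8 members called, from Abca1 at -0.96 to Scd1 at +0.64.

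Between numbers 3 and 2, none of the 26 members was called, against 1.15% of all genes. At an unadjusted p under 0.05 there were 4 members, and 14.2% of all genes. Of the 26, 20 lay lower in number 3, with a median of -0.17 (all genes -0.0064). Acaca had the smallest p, at +0.32 ± 0.09 (SE, limma adjusted p = 0.136).

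Further genes of the pathway were set beside these patterns. With co-treatment, 15 of 17 measured genes of other steps in sterol and fatty acid synthesis and uptake were above carrier (50.3% of all genes). Their median was +0.13, and 0 were called. With MIF alone, 14 of the 17 were above carrier in number 1, 7 in number 2 and 12 in number 3. The fall of all 26 members in number 2 was thus not shared by all of these genes. Under co-treatment, Erg28, a scaffold protein of sterol demethylation, differed from carrier by +0.44 ± 0.14. Aacs, which feeds ketone bodies into lipid synthesis, differed there by +0.37 ± 0.16 (SE, limma adjusted p = 0.999 for both). In replicate number 1, 3 of the 17 were called (17.6%), close to the 16.4% of all genes. Elovl6, a fatty acid elongase, rose by 1.27 ± 0.15 and Me1, the malic enzyme that supplies NADPH, by 0.32 ± 0.08. Lpin1, a phosphatidate phosphatase, fell by 0.60 ± 0.08 (SE, limma adjusted p = 1.1e-04, 0.0133 and 4.4e-04 for the 3). Of 6 measured genes of SREBP processing, 1 was called (16.7%, again close to the share of all genes). It was Erlin2, which takes part in degradation at the endoplasmic reticulum (-0.40 ± 0.10, limma adjusted p = 0.0189).

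Among 16 measured genes of LXR signalling, sterol storage and export, 7 fell and 1 rose in number 1, against 9.39% and 7.03% of all genes. Cyp27a1, the mitochondrial sterol hydroxylase, stood at -1.44 ± 0.13, Pltp, the phospholipid transfer protein, at -1.33 ± 0.15, and Nceh1, a cholesteryl ester hydrolase, at -1.07 ± 0.13. Cyp7b1, an oxysterol hydroxylase, was higher by 1.15 ± 0.12 (SE; limma adjusted p between 1.8e-05 for Cyp27a1 and 1.1e-04 for Nceh1). The others that fell were Lipa, Npc2, Apoe and Rxra, and several of the 7, such as Apoe and Lipa, are known to be abundant in macrophages, whose 15 markers were lower too. Their part was not tested. With co-treatment 0 of the 16 were called. Ch25h, which makes the oxysterol that restrains SREBP processing, had the smallest p, at +0.75 ± 0.25 (SE, limma adjusted p = 0.999).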

How the data were processed

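RNA of 12 cultures was hybridised to whole-transcript arrays after labelling with the Affymetrix WT Plus kit, per the labels' protocols. The authors deposited log2 signals, with 1 column for each array. Per the submitters' processing notes, RMA, Expression Console and Transcriptome Analysis Console of Affymetrix were used. The highest values exceed 16, the limit of a 16-bit scanner, so a step of rescaling that no label records may exist, and differences are not given as folds. No label names a genome build.

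Of 28846 probe sets, 6640 controls and 2634 without a symbol were left out. For genes with several, the probe set with the highest mean was kept, which left 19505 genes. Groups came from the sample titles. Limma 3.58.1 (lmFit and eBayes, R 4.3.3) fitted treatment contrasts on 4 group means, and replicate numbers with treatment in the model. Protein by replicate number terms were added to the latter after seeing the data. Tests were two-sided with Benjamini-Hochberg adjustment over all genes at 0.05. The fits were tested on simulated data. The simulated noise was independent between arrays, without the deviations that same-numbered arrays share. The simulation therefore does not vouch for the treatment fits on the real arrays. The members, gene lists and tests were chosen with earlier results of these data known. The rule for named genes gave per-array values for up to 3 called members per role and for the member with the smallest p in co-treatment and in replicate number 1. Which further members and which promoter windows to show was chosen after their values were seen.

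Same-numbered arrays were taken as paired because their titles share a code. Their deviations from group means correlated at r = 0.097 to 0.65 (above 0.1 in 17 of 18 pairs), and the best match of each of the 12 arrays carried its own number. Precision is limited by the few arrays: the median SE of a group difference was 0.17, and 0.14 with the number as a block. The SE printed beside a treatment difference is that of the fit without the block, unless the block is named. Alternatives were the block, centring, further quantile normalization, probe set choice, a filter on dim genes, the variance model and leaving out arrays.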

Additional observations from a re-analysis of the deposited data

How the results depend on the processing

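Each treatment contrast was refitted under 23 alternatives and each comparison of replicate numbers under 21. No member was called in any treatment contrast, or between numbers 3 and 2, in any of them (0 in each). With the replicate number as a replicate block the count of members called stayed at 0 in all 6 treatment contrasts and the medians over members were the same by construction (+0.23 for co-treatment), so the block changed no call. Combined with intensity trend and robust variance, the block called at most 6 genes of all, in co-treatment, and no member. Between number 1 and the others the count of members called, 8 in the report, ranged from 4 to 8 when single arrays were left out. It was 4 without the co-treated arrays and 4 without the carrier arrays, both chosen after seeing the data, with fewer samples in the fit. It was 11 with only genes above the negative control median and 11 with intensity trend and robust variance. The shares of all genes called in these settings are not given here, so a change in count cannot be read as particular to the members. Medians over members with single arrays left out ranged from -0.027 to +0.15 for sCD74, from +0.03 to +0.17 for MIF and from +0.10 to +0.34 for co-treatment. For the departure from additivity they ranged from -0.067 to +0.20. The cause was not tested. Leaving out all arrays of number 2 or number 3, also chosen after seeing the data, gave co-treatment medians of +0.32 in both cases. Centring and further quantile normalization changed the sign of 3 members with sCD74 (Mvd, Hsd17b7, Sc5d), 1 in co-treatment against sCD74 (Idi1), 2 in number 1 against the others (Mvd, Acaca) and 1 between numbers 3 and 2 (Fdft1), none of them called in that contrast. Signal near background limits Pmvk and Insig2 most.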
